A study of Mus musculus with 11 samples.

Results

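The genes Actn2, Actn3, Ttn, Neb, Myom1, Myom2, Tcap, Mybpc1, Mybpc2 and Mybph encode proteins that hold the sarcomere together, and they were followed through cardiac progenitor cells labelled as lacking beta-sarcoglycan, their wild-type counterparts and the myoblast line C2C12. These 10 genes were chosen by name out of the 27567 genes named on the array, and every probe carrying the name, an older synonym or the accession of a member was taken. They had 25 probes of the 41121 kept: 9 for Ttn, 5 for Neb, 3 for Myom1, 2 for Mybph and 1 for each of the others. The Mybpc1 probe was listed under an older clone name and was matched through its accession.

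Total RNA was hybridised to 11 Agilent 1-colour arrays. The first group, written KO-labelled here, was progenitor cells from the ventricle, aorta or atrium of beta-sarcoglycan null mice (5 arrays). The second, written WT-labelled, was the same kind of cell from the same heart regions of wild-type animals (3 arrays), and the third was C2C12, a mouse myoblast line that fuses into muscle fibres in culture and served as the positive control for myogenic differentiation (3 arrays). Per the labels, the wild-type progenitors can become beating cardiomyocytes and the null ones skeletal muscle fibres. The labels give no strain, age, passage or state of growth at harvest, and do not say whether the cells are clones or came from pooled mice.

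The array pairs of KO-labelled ventricle, KO-labelled aorta and C2C12 on slides 1 and 3 differed by less than the noise between repeated spots (0.587 to 0.692 of it, against 2.587 or more in every other pair within a group), so each pair was counted as 1 sample. This left 3 KO-labelled samples, 3 WT-labelled samples and 2 C2C12 samples, C2C12 1 from slides 1 and 3 and C2C12 2 from slide 2. All WT-labelled arrays lay on slide 2 and all KO-labelled arrays on slides 1 and 3, so only C2C12 links the genotypes across slides. A fit with slide as a block rests on C2C12 1 and C2C12 2, 1 sample on each side. It therefore also removes any difference between these 2 samples that has another source than the slide. Each genotype had 1 sample per heart region, and p-values therefore measure a spread between regions, or between samples that may be technical. On each array 49 to 62% of probes stood well above background, and the 75th percentile of signal lay between 962.4 and 1145. Sgcb, the targeted gene, was not lower in KO-labelled than in WT-labelled samples. Its brightest probe (mm8 chr5:73914512-73914571) read 2.99, 2.34 and 2.64 in the KO-labelled ventricle, aorta and atrium. The WT-labelled ventricle, atrium and aorta read 2.20, 2.07 and 1.82. The difference was 0.63 on the log2 scale (SE 0.21, adjusted p = 0.0727 by limma). No source used here says whether these probes lie inside the deleted stretch, so their readings cannot check the labels.

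In a sarcomere, actin filaments are anchored at the Z-disc by alpha-actinin, myosin filaments are tied together at the M-band by myomesins, and titin spans from the Z-disc to the M-band as a molecular spring. Telethonin, from Tcap, caps the Z-disc end of titin, and nebulin runs along the actin filament of skeletal muscle. Myosin-binding proteins C and H sit in stripes on the thick filament, with Mybpc1 the slow skeletal form and Mybpc2 the fast skeletal form. Adult heart muscle uses Actn2 rather than Actn3, which is typical of fast skeletal fibres.

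Levels below are log2 of the background-subtracted signal minus the log2 75th percentile of the same array, so that 0 is the 75th percentile. A probe is called above background where the scanner software flagged it as well above background. Levels are compared between samples for 1 probe at a time, never between probes. The summed signals of marker lists are the exception, as they add levels over different probes. A test is limma on probes that 3 or more of the arrays in the fit showed above background, with Benjamini-Hochberg adjustment over all of them, and a call is an adjusted p under 0.05.

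Start-site sequences are shown for Mybph and Ttn, which were called higher in KO-labelled cells, and for Myom1. Myom1 was above background only in samples where both of them were. The same held for Actn2 and, on 1 C2C12 array, for Mybpc1, whose sequences are not shown. RefSeq (GRCm38.p6) promoters, each 250 bases before to 50 after the annotated start, were held for 6 of the 10 genes: Actn2, Mybpc1, Mybpc2, Mybph, Myom1 and Ttn. Capitals mark E-boxes (CANNTG, the core bound by MyoD family factors), the MEF2 site and the CArG box bound by serum response factor, searched on both strands.
Mybph promoter, chr1:134193198-134193497, plus strand: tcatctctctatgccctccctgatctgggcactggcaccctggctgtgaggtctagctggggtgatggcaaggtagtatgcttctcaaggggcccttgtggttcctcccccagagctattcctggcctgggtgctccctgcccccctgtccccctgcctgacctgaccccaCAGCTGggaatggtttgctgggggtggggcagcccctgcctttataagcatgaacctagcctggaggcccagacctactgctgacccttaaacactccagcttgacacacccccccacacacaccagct
Ttn promoter, chr2:76982498-76982797, minus strand: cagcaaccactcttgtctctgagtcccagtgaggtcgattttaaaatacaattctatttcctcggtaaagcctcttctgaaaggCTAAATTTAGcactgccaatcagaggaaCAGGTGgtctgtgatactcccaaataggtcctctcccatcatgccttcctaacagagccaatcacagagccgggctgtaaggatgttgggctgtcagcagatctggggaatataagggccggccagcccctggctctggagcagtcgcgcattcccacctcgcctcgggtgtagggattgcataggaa
Myom1 promoter, chr17:71019307-71019606, plus strand: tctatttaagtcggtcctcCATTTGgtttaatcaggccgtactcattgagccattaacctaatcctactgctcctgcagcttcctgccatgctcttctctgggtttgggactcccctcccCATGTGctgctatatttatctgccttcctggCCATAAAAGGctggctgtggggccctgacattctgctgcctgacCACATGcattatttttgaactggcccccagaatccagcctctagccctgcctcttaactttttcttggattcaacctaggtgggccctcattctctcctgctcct
All 6 member promoters held an E-box, as did 72.3% of the 32851 promoters of the same length. The E-box form CAGCTG was in the Mybph and Mybpc1 promoters and in 16.3% of all. CACCTG or its reverse complement CAGGTG was in the Ttn and Mybpc2 promoters and in 20.2% of all. The MEF2 site was in the Ttn promoter and in 3.2% of all, and the CArG box in the Myom1 promoter and in 1.6% of all. CAGCTG and CACCTG are themselves E-boxes and are counted in both. These are matches of letters in a short window.

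Among the KO-labelled samples, 13 of the 25 member probes, from 8 genes, were above background on both ventricle arrays, 8 probes on the atrium array and 7 on both aorta arrays, the last 2 sets each covering 5 genes. The WT-labelled ventricle had 5 probes of 4 genes above background, and the WT-labelled atrium and aorta had 2 probes of 2 genes each, Actn3 and Myom2. C2C12 1 had 17 probes above background on both of its arrays and C2C12 2 had 13, from 8 genes in each case. Of the 25 probes, 5 were above background on no array. In these bulk samples, fewer cells of a type and less RNA per cell cannot be told apart.

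**Figure D1:**
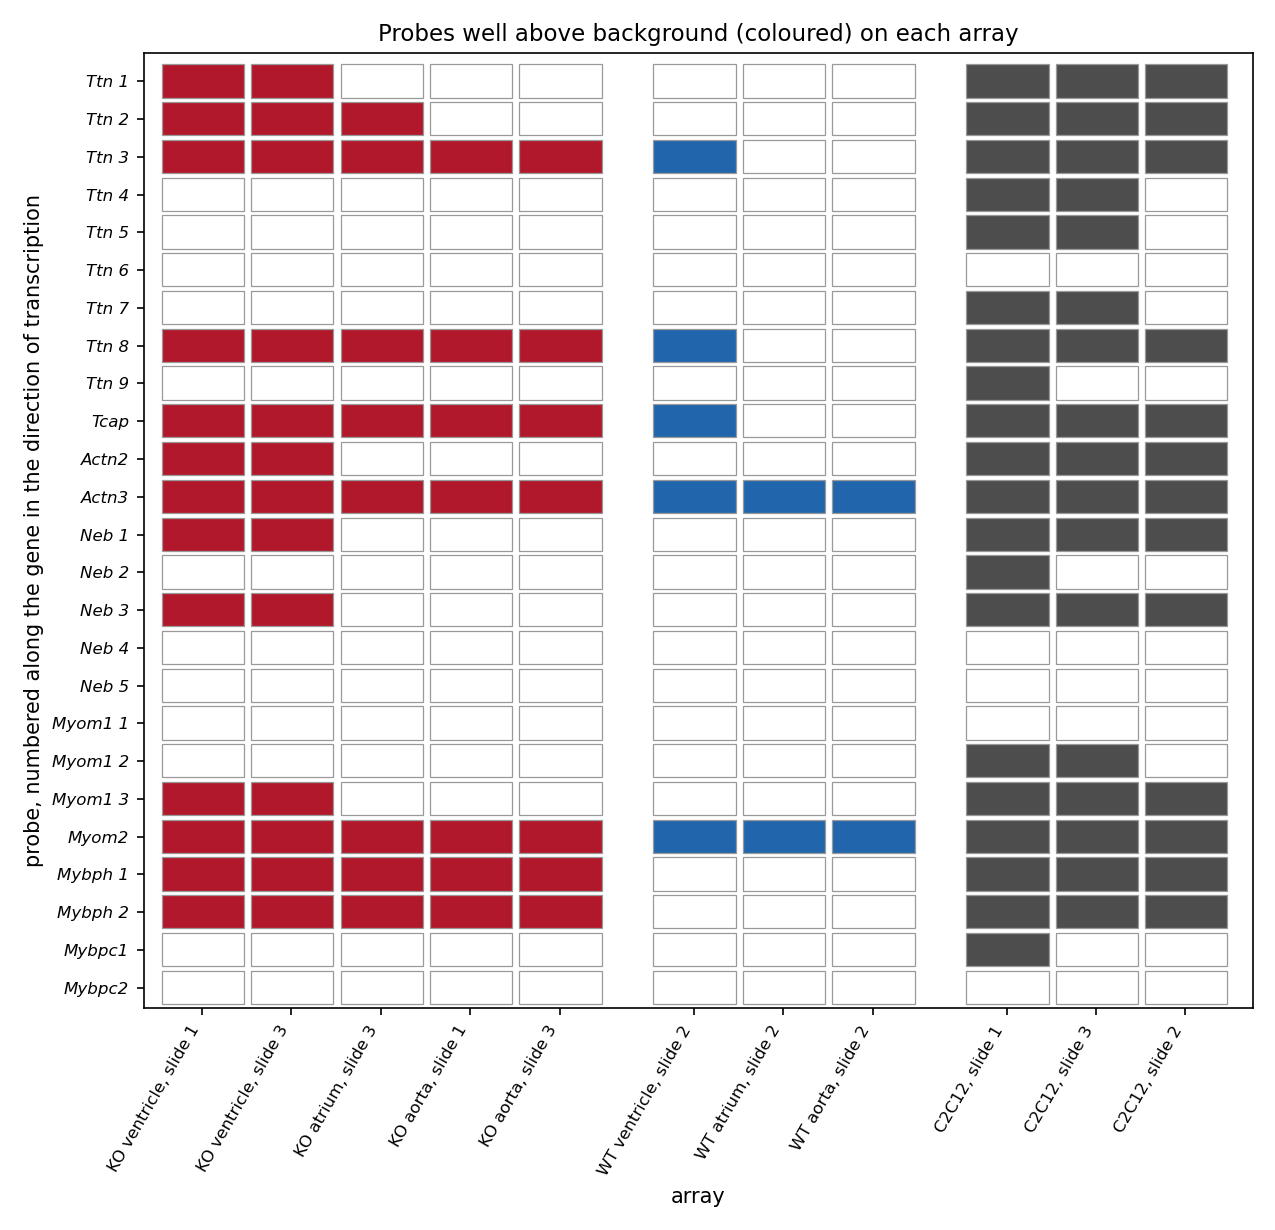
Each cell is 1 of the 25 probes (rows, numbered along each gene in the direction of transcription) on 1 of the 11 arrays (columns), coloured where the probe was well above background. KO-labelled ventricle arrays show 13 coloured probes and KO-labelled aorta arrays 7, against 5 on the WT-labelled ventricle array and 2 on each other WT-labelled array.

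Actn3, the alpha-actinin of fast skeletal fibres, was higher in every KO-labelled sample than in any WT-labelled one. Its probe (mm8 chr19:4861727-4862212, minus strand) read 2.71 in the KO-labelled ventricle, 1.70 in the atrium and 0.69 in the aorta, against -2.28 in the WT-labelled ventricle, -1.89 in the atrium and -3.58 in the aorta. C2C12 1 and 2 read 2.62 and 1.17. The KO-labelled samples overlapped C2C12, and every WT-labelled sample lay below both. The mean level was 1.70 ± 1.01 in KO-labelled cells and -2.58 ± 0.88 in WT-labelled cells (SD, n = 3 each), a difference of 4.28 (SE 0.63, limma adjusted p = 0.0045), which is 19.5-fold. With slide as a block the difference was 2.83 and the adjusted p 0.296. WT-labelled cells minus C2C12 gave -4.48 (SE 0.74, adjusted p = 0.00491 by limma), a fall below C2C12 that was called. KO-labelled cells minus C2C12 gave -0.20 (SE 0.74, adjusted p = 0.97 by limma).

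Actn2, the alpha-actinin shared by heart and skeletal muscle, was above background in fewer samples. Its probe (mm8 chr13:12327056-12329428, minus strand) read -5.01 in the KO-labelled ventricle, and its readings of -7.25 in the KO-labelled aorta and -6.76 in the atrium were not above background. All 3 WT-labelled samples were below background (-7.89 to -6.47), and C2C12 1 and 2 read -3.07 and -4.13. With only the KO-labelled ventricle arrays above background among the heart samples, Actn2 could not be tested between the genotype labels. It was at least 2.47-fold lower in WT-labelled cells than in C2C12 (adjusted p = 0.0118 by limma, 0.0899 with slide as a block). Its probe would not have passed the filter without the C2C12 arrays, so these adjusted p-values are descriptions. KO-labelled cells minus C2C12 gave -2.74 (SE 0.72, adjusted p = 0.18 by limma), which averages in the below-background readings of the KO-labelled aorta and atrium.

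Tcap (mm8 chr11:98200903-98200962, plus strand) read -2.29, -3.72 and -3.38 in the KO-labelled ventricle, aorta and atrium. The WT-labelled atrium, ventricle and aorta read -4.54, -4.91 and -5.77, of which the ventricle value alone was above background. C2C12 1 and 2 read 0.67 and -0.91, above all heart samples. Tcap was 1.94 higher in KO-labelled than in WT-labelled cells (SE 0.47, adjusted p = 0.0258 by limma), which is 3.84-fold, and 0.37 higher with slide as a block (adjusted p = 0.888). The WT-labelled aorta reading lay under the lowest signal above background on its array (-4.45). Sizes that use the WT-labelled mean of Tcap are therefore not exact. KO-labelled cells minus C2C12 gave -3.01 (SE 0.61, adjusted p = 0.0902), and WT-labelled cells minus C2C12 gave -4.95 (SE 0.61, adjusted p = 0.00135 by limma).

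Titin had 9 probes along its length, and 4 of them, of which 3 lay toward the start of the gene and 1 near its end, were above background on all 3 C2C12 arrays. The brightest (mm8 chr2:76714937-76714996, minus strand), designed on a cDNA of the short NOVEX-3 form per its description, read -1.58, -3.67 and -1.85 in the KO-labelled ventricle, aorta and atrium. The WT-labelled atrium, ventricle and aorta read -4.63, -4.92 and -4.43, and C2C12 1 and 2 read 0.26 and -1.42. The KO-labelled samples lay above the WT-labelled ones and below C2C12, although only the ventricle value of the WT-labelled samples was above background. The difference between the genotype labels was 2.30 (SE 0.55, adjusted p = 0.0254 by limma), which is 4.91-fold. With slide as a block it was 0.62 (adjusted p = 0.831). Sizes that use the WT-labelled mean of this probe are not exact, as its atrium and aorta readings were not above background.

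Other titin probes gave sizes that spread around this one. A probe near the end of transcription (mm8 chr2:76505330-76505389) read -1.13, -4.26 and -2.38 in the KO-labelled ventricle, aorta and atrium. It read -4.56, -5.23 and -4.67 in the WT-labelled atrium, ventricle and aorta, of which the ventricle value alone was above background. The difference of 2.23 (SE 0.76, adjusted p = 0.0732 by limma) was not called, and its size is not exact. A probe toward the start of the gene (mm8 chr2:76746309-76746368) was above background on 3 KO-labelled arrays, those of the ventricle and atrium, and on no WT-labelled array, and was at least 2.96-fold higher in KO-labelled cells (adjusted p = 0.0258 by limma). It passed the filter only through those KO-labelled arrays, so this adjusted p is a description. The probe nearest the start (mm8 chr2:76765947-76766006) was above background in the KO-labelled ventricle, at -3.77, and in C2C12, at -1.87 and -3.52, and in no WT-labelled sample. The remaining titin probes were above background on C2C12 arrays only or, in 1 case, on no array. All 4 titin probes tested against C2C12 were called lower in WT-labelled cells, with adjusted p from limma between 0.00552 and 0.0202. None was called in KO-labelled cells. The probes at chr2:76746309-76746368 and chr2:76765947-76766006 were above background on no WT-labelled array, so their adjusted p-values are descriptions.

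Nebulin and myomesin 1 were above background in the same samples, the KO-labelled ventricle and C2C12, by their brightest probes. The brightest Neb probe (mm8 chr2:52135166-52135225, minus strand) read -2.37 in the KO-labelled ventricle and was not above background in the KO-labelled aorta or atrium (-7.06 and -6.51) or in any WT-labelled sample (-7.69 to -6.53). C2C12 1 and 2 read -0.71 and -2.37. A second Neb probe (mm8 chr2:52100792-52100851) read -3.67 in the KO-labelled ventricle, against -2.04 and -3.57 in C2C12, and was otherwise below background. The brightest Myom1 probe (mm8 chr17:71031356-71031415, plus strand) read -2.71 in the KO-labelled ventricle, was below background in the other heart samples, and read -0.74 and -2.55 in C2C12. Neither gene could be tested between the genotype labels. Against C2C12, Neb was at least 10.3-fold lower (adjusted p = 0.0231 by limma) and Myom1 at least 9.56-fold lower (adjusted p = 0.0175) in WT-labelled cells. Neither passed with slide as a block (adjusted p = 0.145 and 0.122). Neither probe would have passed the filter without the C2C12 arrays, so these adjusted p-values are descriptions. KO-labelled cells minus C2C12 gave -3.78 for Neb (SE 1.34, adjusted p = 0.315 by limma) and -3.50 for Myom1 (SE 1.18, adjusted p = 0.294). Both differences average in the below-background readings of the KO-labelled aorta and atrium, so their sizes are not exact.

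Myom2, the myomesin of fast skeletal fibres and heart, was above background on all 11 arrays and was the member, among the 5 tested between the genotype labels, whose groups overlapped. Its probe (mm8 chr8:15133299-15133358, plus strand) read 3.74 in the KO-labelled ventricle, 1.14 in the atrium and -0.72 in the aorta, against -0.84 in the WT-labelled ventricle, -3.25 in the atrium and -0.21 in the aorta. C2C12 1 and 2 read 4.97 and 3.40. The KO-labelled aorta fell inside the range of the WT-labelled samples, and the KO-labelled ventricle lay between the C2C12 samples. The difference between the genotype labels was 2.82 (SE 1.28, adjusted p = 0.152 by limma). WT-labelled cells minus C2C12 gave -5.62 (SE 1.38, adjusted p = 0.0234 by limma), or an adjusted p of 0.143 with slide as a block. KO-labelled cells minus C2C12 gave -2.80 (SE 1.38, adjusted p = 0.489).

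Mybph, the short myosin-binding protein H of skeletal thick filaments, was above background on all 5 KO-labelled arrays and on no WT-labelled array. Its brighter probe (mm8 chr1:136016493-136016810, plus strand) read 2.49 in the KO-labelled ventricle, -0.63 in the atrium and -2.74 in the aorta, against readings of -5.52, -5.59 and -4.95 in the WT-labelled ventricle, atrium and aorta. C2C12 1 and 2 read 3.99 and 2.28. The KO-labelled ventricle lay between the C2C12 samples, and the KO-labelled aorta was the lowest sample above background. Mybph was at least 24-fold higher in KO-labelled than in WT-labelled cells (adjusted p = 0.0268 by limma), and at least 18.8-fold higher by its second probe (mm8 chr1:136016833-136017392, adjusted p = 0.0124). Both probes passed the filter only through KO-labelled arrays, so these adjusted p-values are descriptions. With slide as a block the adjusted p was 0.552 for the brighter probe. It was at least 259-fold lower in WT-labelled cells than in C2C12 (adjusted p = 0.004 by limma). In that fit it passed the filter only through KO-labelled and C2C12 arrays, so this adjusted p is a description. KO-labelled cells minus C2C12 gave -3.43 (SE 1.35, adjusted p = 0.37).

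The 2 skeletal forms of myosin-binding protein C were not above background in any heart sample. The Mybpc1 probe (mm8 chr10:87952891-87952950, minus strand) was above background on 1 of 3 C2C12 arrays, and the Mybpc2 probe (mm8 chr7:44369762-44369821, minus strand) on none. Neither was tested, and a signal under background bounds the level from above without showing that the transcript is absent.

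**Figure D2:**
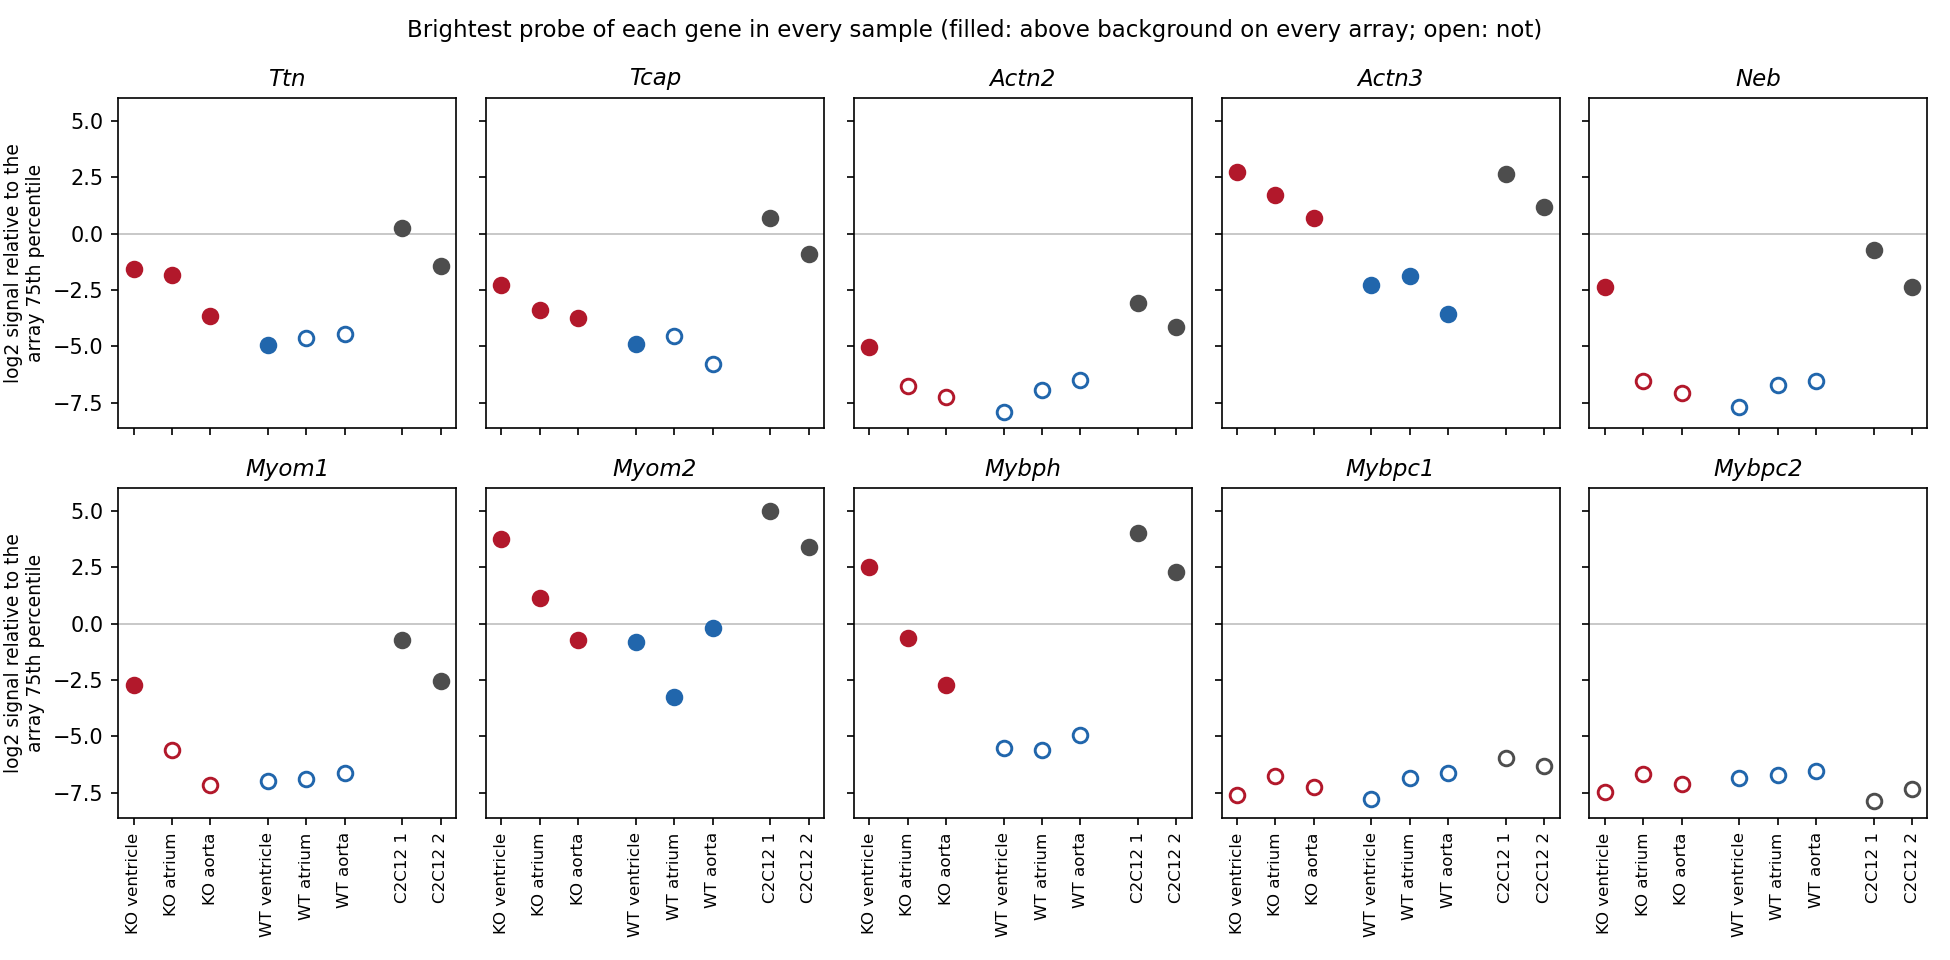
Each panel gives the brightest probe of 1 gene in the 8 samples, as log2 signal relative to the array 75th percentile (KO-labelled red, WT-labelled blue, C2C12 grey), with open points where the probe was not above background on every array of the sample. KO-labelled points fall in the order ventricle, atrium, aorta for Actn3, Mybph, Myom2, Tcap and Ttn, and Neb, Myom1 and Actn2 are filled in the KO-labelled ventricle and in C2C12 only.

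Between the genotype labels, 4 of the 5 member genes tested were called higher in KO-labelled cells (Actn3, Mybph, Tcap and Ttn) and 0 lower, counted by each gene's brightest tested probe. Over all 15002 genes tested, 13.5% were called higher and 15.8% lower. The other 5 members had too few arrays above background to be tested, and Mybph passed that filter only through KO-labelled arrays. The median difference of the 5 tested was 2.82, against -0.06 over all genes. With slide as a block, 0 of the 5 were called. The count was 2 without the KO-labelled ventricle, when Tcap and Ttn were lost, 3 without the WT-labelled atrium, when Mybph was lost, and 1 without the KO-labelled atrium, the WT-labelled ventricle or the WT-labelled aorta, when Actn3 alone was called.

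Against C2C12, 0 of the 8 member genes tested were called in either direction in KO-labelled cells by limma, 6 had an unadjusted p under 0.05, and 3 were called lower (Actn2, Tcap and Ttn) when every array was its own sample. Of all 15807 genes tested in that comparison, 0.595% were called higher and 0.512% lower. In WT-labelled cells, 0 of the same 8 genes were called higher and 8 lower, against 13.6% higher and 13.1% lower among all genes. Of those 8, Actn2, Mybph, Myom1 and Neb were above background on no WT-labelled array and passed the filter through the other arrays. Among them, Actn2, Myom1 and Neb would not have passed without the C2C12 arrays, so the count of 8 is a description. The member median was -2.91 for KO-labelled cells minus C2C12 and -5.06 for WT-labelled cells minus C2C12, or -4.28 with the 4 undetected genes at their bounds, against -0.03 and 0.03 over all genes. The KO-labelled median takes the below-background readings of Actn2, Myom1 and Neb as they are. The comparisons share the C2C12 samples. With slide as a block, 4 of the 8 stayed called lower in WT-labelled cells (Actn3, Mybph, Tcap and Ttn), and 4 were called without C2C12 1, when Actn2, Myom1, Myom2 and Neb were lost. Neb was also lost without the WT-labelled ventricle or aorta, and Neb and Myom2 without C2C12 2. In KO-labelled cells, Neb was called lower without the KO-labelled ventricle (adjusted p = 0.0353 by limma).

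**Figure D3:**
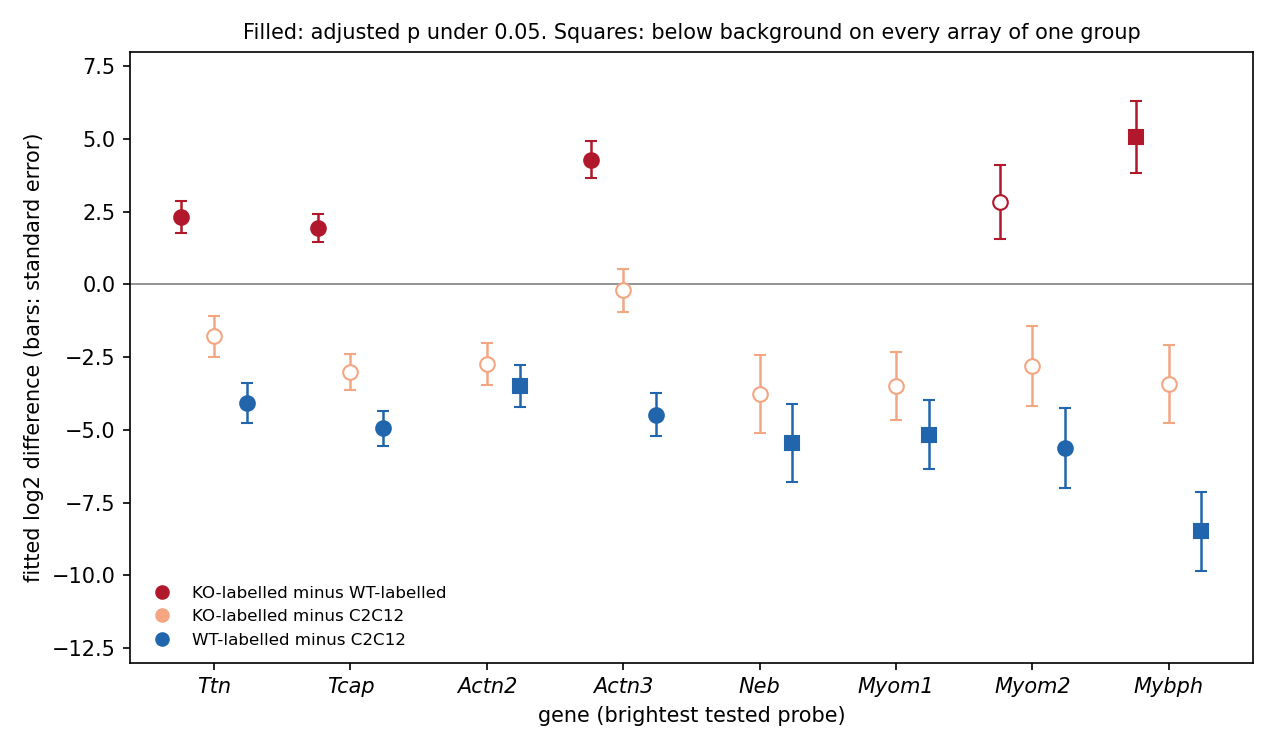
Fitted log2 differences (points) with standard errors (bars) for the brightest tested probe of each gene in the 3 comparisons, filled where adjusted p was under 0.05 and square where 1 group was below background on every array, for which the fitted value is no bound. KO-labelled minus WT-labelled values are all above 0, and WT-labelled minus C2C12 values are all below 0 and all filled.

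The members also differed among samples of the same group. Of the 7 member probes above background on all KO-labelled arrays, every one was highest in the ventricle and lowest in the aorta. The KO-labelled ventricle exceeded the KO-labelled aorta by 1.42 (Tcap) to 5.24 (Mybph) on the log2 scale, with a median of 3.13. Over all 19845 probes above background on those arrays the median was -0.04, with the 5th and 95th percentiles at -0.74 and 0.67. For Mybph this was 37.5-fold by the brighter probe, for Myom2 21.9-fold and for Actn3 4.06-fold. Each region is 1 KO-labelled sample, counted from 2 arrays for ventricle and aorta whose member probes differed by at most 0.43, so the order has no replicate of its own and no test.

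The C2C12 samples differed in a like way. All 13 member probes above background on every C2C12 array were higher in C2C12 1 than in C2C12 2, by 1.07 (Actn2) to 2.20 (Ttn) with a median of 1.65, whereas the median of 21262 probes was -0.01 and their 5th and 95th percentiles -0.58 and 0.71. C2C12 1 came from the slides that held the KO-labelled arrays and C2C12 2 from the slide that held the WT-labelled arrays. Culture and slide cannot be told apart here. A test of heart region over both genotype labels, an F test with genotype as covariate, called 0 of the 5 member genes and 0 of all 15002 genes, 0%, with 730 genes and, among the members, Actn3 at an unadjusted p under 0.05.

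**Figure D4:**
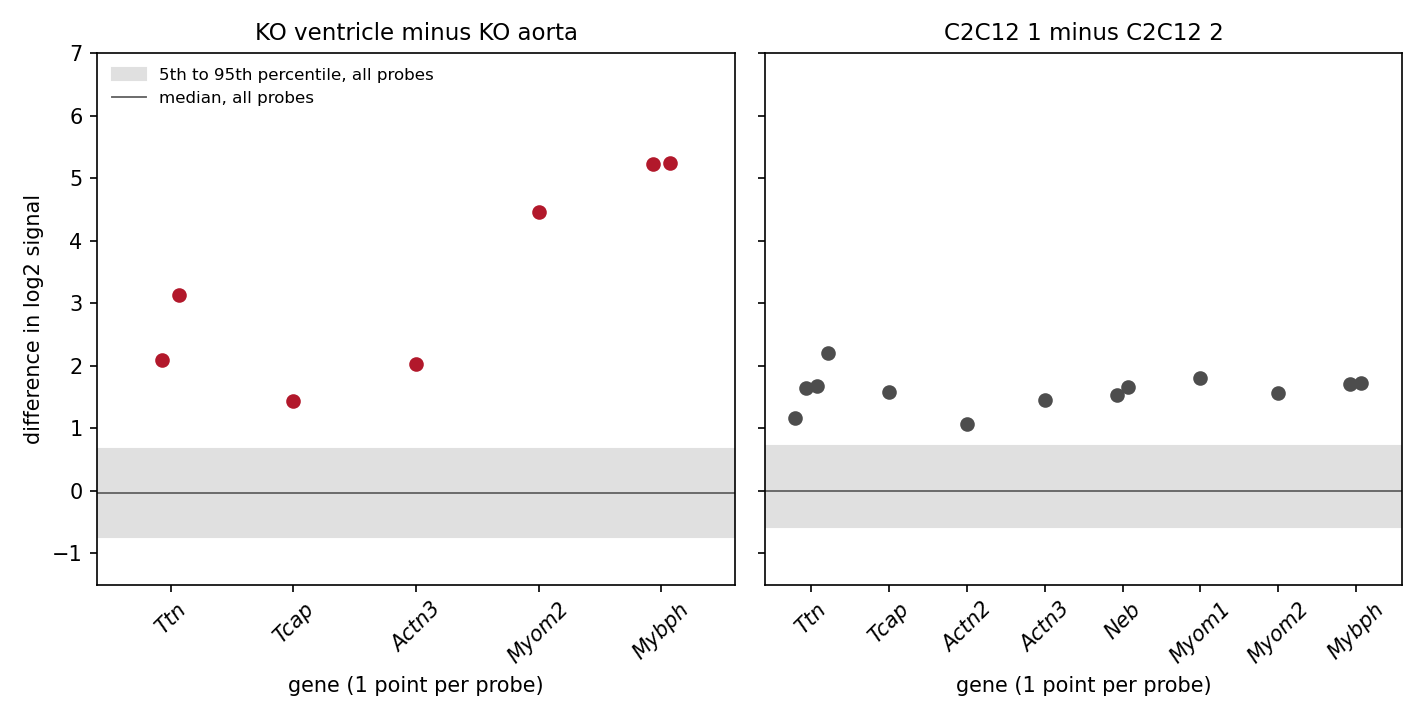
Differences in log2 signal between the KO-labelled ventricle and aorta (left) and between C2C12 1 and C2C12 2 (right) for each member probe above background on every array of the group, beside the 5th to 95th percentile range of all such probes (grey band). All member points lie above the band, from 1.42 to 5.24 on the left and from 1.07 to 2.20 on the right.

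Markers of skeletal muscle moved with the members. Of 8 skeletal myoblast and fibre markers, 6 were above background on every KO-labelled array and 0 on every WT-labelled array, and all 6 tested between the genotype labels were called higher, or 4 with slide as a block, where 13.5% of all genes were called higher. Of these 6, 4 were above background on no WT-labelled array and passed the filter only through KO-labelled arrays, so the count is a description. Their summed linear signal, in multiples of the 75th percentile, ran from 38 to 148 in KO-labelled samples, against 0.0989 to 0.193 in WT-labelled samples, and from 69.4 to 177 in C2C12. Myog, the differentiation factor myogenin, read 4.61 in the KO-labelled ventricle, 1.37 in the atrium and -0.43 in the aorta, the order the members had, and was below background in every WT-labelled sample. Myod1, the myoblast determination factor, read 3.05, 2.82 and 2.09 in the same order, a range of less than 1 on the log2 scale. The 95th percentile of all probes for the KO-labelled ventricle minus aorta was 0.67. The part of Myog and Myod1 in the members' differences was not tested.

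**Figure D5:**
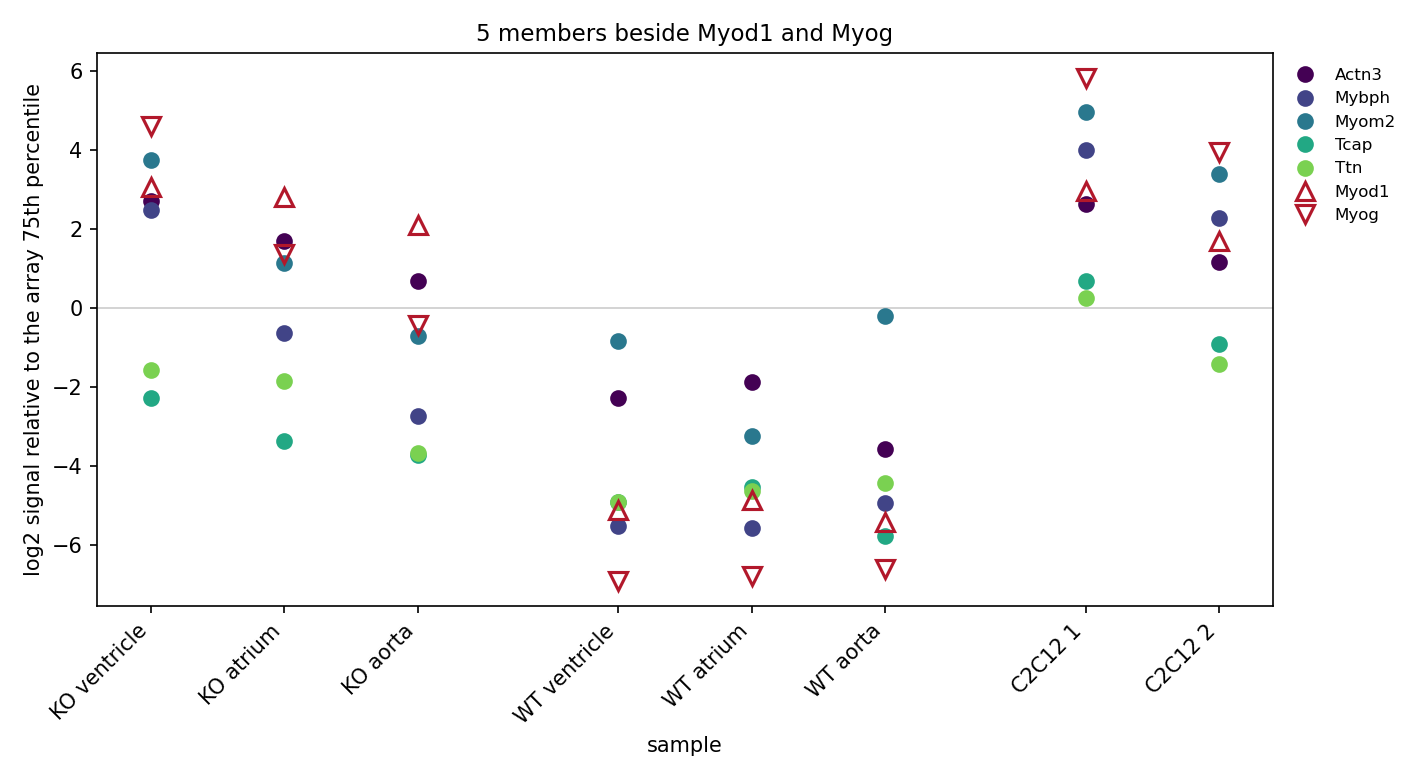
Log2 signal relative to the array 75th percentile in each sample for the brightest probe of 5 members (filled circles) and for Myod1 and Myog (open triangles), values below background included. Myog stands at 4.61, 1.37 and -0.43 in the KO-labelled ventricle, atrium and aorta, falling with the members. Myod1 falls in the same order over a smaller range, at 3.05, 2.82 and 2.09.

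Markers of other cell types did not move in a single direction, and of each list the sum is carried by its brightest probes. Of 8 cardiomyocyte-restricted markers, Ryr2 and Tbx5 were above background on no array, and the summed signal ran from 0.526 to 1.07 in KO-labelled samples, against 0.241 to 0.296 in WT-labelled samples, and from 0.455 to 0.552 in C2C12. Of the 4 tested between the genotype labels, Nkx2-5, a cardiac transcription factor, read -0.35, -1.06 and -1.38 in the KO-labelled ventricle, aorta and atrium and was above background on no WT-labelled array. It was at least 15.3-fold higher in KO-labelled cells (adjusted p = 0.000138 by limma, 0.00817 with slide as a block). Its probe passed the filter only through KO-labelled arrays, or with the block only through KO-labelled and C2C12 arrays. Both adjusted p-values are therefore descriptions. Tnni3, cardiac troponin I, was also called higher (log2 difference 1.30, adjusted p = 0.0326 by limma, 0.687 with the block) and Nppa, the atrial natriuretic peptide, was called lower (-2.26, adjusted p = 0.000397, 0.0342 with the block). C2C12 showed Nkx2-5, Tnni3 and Myh6 above background on all 3 arrays.

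Fibroblast markers summed to between 132 and 140 in KO-labelled samples, against 59.7 to 99.5 in WT-labelled samples, but 2 of the 4 tested were called higher in KO-labelled cells (Col1a1 and Col3a1) and 2 lower (Pdgfra, log2 difference -4.11, and Dcn, -4.16), with a median of -1.67. Smooth muscle markers summed to between 141 and 285 in KO-labelled samples, against 30.3 to 163 in WT-labelled samples, with 1 of 4 called higher. Pericyte and mesoangioblast markers summed to 18.6 to 24.8 against 8.04 to 10.8, with 2 of 3 called higher. Epicardial markers summed to 2.09 to 6.72 in KO-labelled samples, against 9.02 to 99.4 in WT-labelled samples, with Bnc1 called lower and Krt19 called higher of 3 tested. Bnc1 was above background on no KO-labelled array. Krt19 was above background on no WT-labelled array and was at least 1.24-fold higher in KO-labelled cells. Blood and macrophage markers summed to 0.129 to 0.179 against 1.15 to 2.18, with 2 of 3 called lower. Over all genes, 13.5% were called higher and 15.8% lower. With slide as a block, 0 fibroblast, smooth muscle and epicardial markers were called. In that fit 1 pericyte and mesoangioblast marker was called higher and 1 blood and macrophage marker lower. No endothelial marker was above background on a KO-labelled or WT-labelled array. The part of these markers in the members' differences was not tested.

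Partners of these proteins at the Z-disc, M-band and thick filament include binding proteins, ubiquitin ligases and assembly factors. Of 38 listed, 26 were tested between the genotype labels, 12 were called higher in KO-labelled cells and 0 lower, where 13.5% of all genes were called higher, and 1 was called with slide as a block. Of the 12, 9 were above background on no WT-labelled array and passed the filter only through KO-labelled arrays, so the count is a description. Their median difference was 2.68, or 1.79 with undetected genes at their bounds, against -0.06 over all genes. The gene called with the block was Ldb3, whose product binds alpha-actinin-2 at the Z-disc. Its brightest tested probe read -2.86, -3.48 and -2.90 in the KO-labelled ventricle, aorta and atrium, was below background in every WT-labelled sample, and was at least 3.55-fold higher (adjusted p = 0.000211 by limma, 0.022 with slide as a block). Another Ldb3 probe read -3.75, -4.44 and -3.74 in the same KO-labelled samples, against -5.09, -6.07 and -5.90 in the WT-labelled ventricle, atrium and aorta, and was above background on 1 WT-labelled array. Capn3, the muscle calpain that binds titin, was at least 5.12-fold higher (adjusted p = 0.00251 by limma, 0.101 with the block). Its levels of -1.90, -2.87 and -2.87 in the KO-labelled ventricle, aorta and atrium spread less than those of Myom3, the third myomesin, at -0.04, -4.66 and -2.55. Myom3 was at least 5.61-fold higher in KO-labelled cells (adjusted p = 0.0303 by limma, 0.664 with the block). Trim63, a ubiquitin ligase that binds titin near the M-band, was at least 2.40-fold higher but missed the threshold (adjusted p = 0.0531 by limma). In the fit without the block, the tested probes of Ldb3, Capn3, Myom3 and Trim63 passed the filter only through KO-labelled arrays. With the block they passed only through KO-labelled and C2C12 arrays. The adjusted p-values of both fits are descriptions.

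Relatives of the members or of their partners that are also used outside striated muscle were set beside the members. Of 7 tested, 1, a relative of a partner, was called higher in KO-labelled cells and 0 lower, a share near the 13.5% of all genes. With slide as a block, 0 were called. The median difference was -0.01. Actn1, a non-muscle alpha-actinin, averaged 1.25 ± 0.34 in KO-labelled cells and 1.27 ± 0.34 in WT-labelled cells (SD, n = 3 each), where Actn3 differed by 4.28. Actn4, the other non-muscle form, averaged 4.62 ± 0.30 in KO-labelled cells and 5.28 ± 0.17 in WT-labelled cells (SD, n = 3 each), a difference of -0.66 (SE 0.20, adjusted p = 0.0523 by limma). Against C2C12, 0 of 32 partners and 0 of 7 relatives were called in KO-labelled cells, with medians of -2.03 and -0.33. Over all genes, 0.595% were called higher and 0.512% lower in that comparison. In WT-labelled cells 24 partners were called lower and 1 higher, with a median of -4.74, or -3.43 with undetected genes at their bounds. The 24 include partners above background on no WT-labelled array, so that count is a description. Of the relatives, 1 was called lower.

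The genes with profiles most like the members were found by the mean absolute difference between centred log2 profiles over the 8 samples, among 15799 other genes. For the mean profile of the 8 tested members the genes nearest by this measure included Trim54, a ubiquitin ligase, at 0.23, Lmod3, an actin filament nucleator, at 0.28 and Srl, a calcium-binding protein of the sarcoplasmic reticulum, at 0.30. Trim54 read 0.61, -2.42 and -1.35 in the KO-labelled ventricle, aorta and atrium, against -3.16, -2.92 and -3.32 in the WT-labelled ventricle, atrium and aorta, while C2C12 1 and 2 read 2.69 and 1.10. Gene by gene, the nearest was Pygm, muscle glycogen phosphorylase, for Actn2 (0.12) and Tgfb2, a secreted growth factor, for Actn3 (0.44). It was Mb, myoglobin, for Mybph (0.26), Myl4, the embryonic and atrial myosin light chain, for Myom2 (0.40), and Cox8b, a muscle subunit of cytochrome oxidase, for Neb (0.24). Tcap was nearest to Xirp1 (0.33), which lies on the partner list, and Ttn to Asb2 (0.30). The nearest to Myom1 was a transcript with no gene name in the files (0.17). Trim54 and Lmod3 are also on the partner list. These distances describe 8 samples that fall into 3 groups and carry no test.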

How the data were processed

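Total RNA of mouse cardiac progenitor cells and C2C12 was labelled with Cy3 and hybridised to 1-colour arrays. Per the file headers, the deposited spot intensity values came from Agilent Feature Extraction 9.5.3.1 (the version per the submitters' processing notes), which subtracted background, removed spatial trends and replaced signals near background by surrogate values. Arrays were not scaled to each other. The authors' series-wide table holds log2 values, which equalled log2 of the mean processed signal within 0.01 for 99.8% of probes on each array, so it carries no further scaling, and it was used only as an alternative. Medians of its columns lay between 5.45 and 5.77.

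Of 45018 spots on an array, the 1639 control spots and 39 to 120 outlier spots per array were left out, repeated spots were averaged, and 41121 of 41174 probes were kept. Probe positions (mm8) come from the design of the array. Probes were named through RefSeq (GRCm38.p6) by accession (24340), symbol (6299) or synonym (2418), and 8064 kept the name in the file. Near-identical arrays were joined on 10201 bright probes. Levels were scaled to each array's 75th percentile on the log2 scale. Probes above background on 3 or more arrays entered lmFit and eBayes (limma 3.58.1, R 4.3.3): the 6 heart samples for KO-labelled against WT-labelled and all 8 for comparisons with C2C12. A gene's count rests on its brightest tested probe, and adjusted p under 0.05 was called. A bound ("at least N-fold") sets the brighter group's mean against the dim group's, where each dim array counts with its own reading or with its lowest signal above background, whichever is larger. Slide as a block compares each genotype with the C2C12 of its own slides. The fit was tested on simulated data, and tables and plots used Python 3.11.15, pandas 2.3.3, numpy 2.4.6 and matplotlib 3.10.9.

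The text names all 10 members, at most 6 partners or relatives a comparison (those that bind or modify a member or are its closest relative), and the nearest profiles, of which some are not reported here. Members, partner, relative and marker lists were chosen with earlier results of these data known, so none is independent evidence of its direction. Alternatives changed the background correction (normexp), scaling, value source, filter, probes per gene, joining, blocks and samples. The number of arrays limits the precision.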

Additional observations from a re-analysis of the deposited data

Results flagged for a closer look

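Myom2 differed between heart regions in the direction of its genotype difference. KO-labelled minus WT-labelled cells gave 4.57 on the log2 scale in the ventricle and 4.39 in the atrium, but -0.51 in the aorta. The readings were 3.74 against -0.84 in the ventricle, 1.14 against -3.25 in the atrium and -0.72 against -0.21 in the aorta, KO-labelled first and all above background. With 1 sample per genotype and region the difference between regions was not tested. No group held 4 or more samples after near-identical arrays were joined, so no single sample was tested as an outlier.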

How the results depend on the processing

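Between the genotype labels, the count of members called higher was 4, and 0 with slide as a block. Leaving out 1 sample at a time gave 1 to 4. Against C2C12, the count called lower in KO-labelled cells was 0, and 3 with every array as its own sample. Leaving out 1 sample at a time gave 0 to 1, the 1 being Neb without the KO-labelled ventricle. In WT-labelled cells it was 8, and 4 with slide as a block. Leaving out 1 sample at a time gave 4 to 8. Actn3 in KO-labelled cells minus C2C12 was -0.20, ran from -0.92 to 0.53 with 1 sample left out, and turned to 0.31 without the KO-labelled aorta and 0.53 without C2C12 1, passing the threshold in neither. In WT-labelled cells minus C2C12, Actn2 also lost its call under normexp. The cause was not tested. The block on region, median and quantile scaling, the series-wide table, the dim-probe filters, 1 probe per gene and all 8 samples in the fit left the member counts within 1.5 times. Values with no test, from the KO-labelled samples alone or from C2C12 of the same slides, give no count. The block on region, which pairs the genotype labels by heart region, called the same count of 4, with Actn3 at 4.28 (SE 0.31, adjusted p = 0.00288 by limma). The labels give no replicate numbers to pair by.

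Over all genes, KO-labelled against WT-labelled called 2025 higher and 2369 lower. This was 507 and 375 with slide as a block, 1157 lower under normexp and 3601 lower with every array as its own sample, and without the KO-labelled aorta or atrium or the WT-labelled ventricle or aorta fell as far as 1270 higher and 1266 lower. KO-labelled against C2C12 called 94 higher and 81 lower: 22 and 12 under normexp, 58 and 41 with no filter, 850 and 753 with every array as its own sample, 7 and 5 with slide as a block, and 5 to 260 higher and 4 to 184 lower with 1 sample left out. WT-labelled against C2C12 called 2153 higher and 2074 lower: 982 and 1353 under normexp, 3454 and 3172 with every array as its own sample, 1138 and 1111 with slide as a block, and as few as 1139 and 1073 without C2C12 1. Genes near background have only bounds.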

Other observations

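Outside the chosen probes, 1 probe described in the files as nebulin and 1 described as myomesin 2, neither carrying the gene's name, were also on the arrays. The nebulin-described probe read -4.82 in C2C12 1, above background on both arrays, and was below background in C2C12 2 and on all heart arrays. The myomesin 2-described probe was above background on 1 C2C12 array only, where the named Myom2 probe was above background on all 11 arrays.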
